A study of Mus musculus with 6 samples.

Results

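The microRNAs miR-296 and miR-298 come from neighbouring hairpins on mouse chromosome 2, next to the imprinted Gnas locus. A hairpin precursor is cut into a duplex of a 5p and a 3p arm, and the members described here are both arms of both hairpins: miR-296-5p, miR-296-3p, miR-298-5p and miR-298-3p. They were chosen by name, as 4 of the 1966 rows of the table, because miR-296-3p and miR-298-5p stood out for their low level after pressure overload in these same 6 hearts. Their difference between the groups is therefore given as a description, without a test.

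Reads of mature miRNAs were counted in heart tissue of 6 male wild-type (WT) mice, 8 weeks after surgery, with 1 library per mouse. Transverse aortic constriction (TAC) ties a suture around the aortic arch, so that the left ventricle pumps against raised pressure. The TAC group had 3 mice (animals 29, 78 and 81), and the sham group, operated on without the constriction, had 3 (animals 47, 68 and 69). The strain and the age of the mice are not stated in the labels. Libraries held 1226187 to 3509001 counts, and the lowest total was that of TAC 81. Every TAC library held fewer counts than every sham library, with 1795831 in TAC 29 as the highest of TAC and 1818725 in sham 68 as the lowest of sham. Raw counts of the groups therefore differ in part by depth. Counts differed between all libraries within each group. The 4 miRNAs that mark cardiac muscle, miR-1a-3p, miR-133a-3p, miR-208a-3p and miR-499-5p, were present in every heart, with summed levels of 151805 to 183052 CPM in sham and 273500 to 325883 CPM in TAC. CPM is the usual count scaled to a common library size, here with TMM factors, which assume that most miRNAs do not change.

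As background, imprinted genes are expressed from the copy of 1 parent. At the Gnas locus, Nespas is a noncoding antisense RNA made from the paternal copy, and in the mouse miR-296 and miR-298 are described as paternally expressed members of the same cluster. Gnas itself encodes the stimulatory G protein subunit that links beta-adrenergic receptors to adenylyl cyclase in heart muscle. miR-296 is known for targeting Nanog in mouse embryonic stem cells and for a role in blood vessel growth through human endothelial cells, and miR-298 for targeting the mouse Bace1 mRNA. A miRNA finds its targets mainly through its seed, bases 2 to 8 from the 5′ end.

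The mature sequences are shown because the arms of the miR-296 hairpin differed in how much lower they were in TAC, with the seed in capitals (RefSeq, GRCm38.p6, all 4 of 4 members matched by name and with the coordinates of the table):
miR-296-3p: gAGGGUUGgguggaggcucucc
miR-296-5p: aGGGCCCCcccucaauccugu
miR-298-5p: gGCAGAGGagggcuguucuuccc
miR-298-3p: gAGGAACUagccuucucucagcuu
In the hairpins below, the capitals mark the arms, with the 5p arm on the left.
Mir296 hairpin: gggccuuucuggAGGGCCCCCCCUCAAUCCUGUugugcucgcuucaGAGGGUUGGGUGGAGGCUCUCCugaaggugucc
Mir298 hairpin: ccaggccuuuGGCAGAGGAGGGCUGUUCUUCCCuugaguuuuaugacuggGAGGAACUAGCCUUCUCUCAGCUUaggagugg

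The 4 seeds differ from each other, and 0 other rows with a RefSeq sequence carry any of them. The longest run of bases that a member shares with another mature miRNA is 11, between miR-298-5p and miR-7047-5p, and 0 rows share 16 or more. Each member has 1 place in the genome. Reads of these rows are thus unlikely to be split with another named miRNA. The miR-296 arms and miR-298-5p are rich in G and C, at 68.2% for miR-296-3p, 66.7% for miR-296-5p and 65.2% for miR-298-5p, and miR-296-5p holds a run of 7 C.

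All 4 rows lie on the minus strand of chromosome 2 (mm10). miR-296-3p is at 174267058 to 174267079, miR-296-5p at 174267093 to 174267113, miR-298-3p at 174267512 to 174267535 and miR-298-5p at 174267553 to 174267575. The hairpins are 378 nt apart, with miR-298 upstream in the direction of transcription. In GENCODE M21, 0 other annotated genes overlap either hairpin, so both are intergenic there. The annotated 3′ end of Nespas, on the same strand, lies 13.7 kb upstream of the miR-298 hairpin, and Gnas starts on the other strand at a distance of 16.7 kb. No other row of the table overlaps a member on either strand. The RNAs of Nespas and Gnas were not measured.

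**Figure D1:**
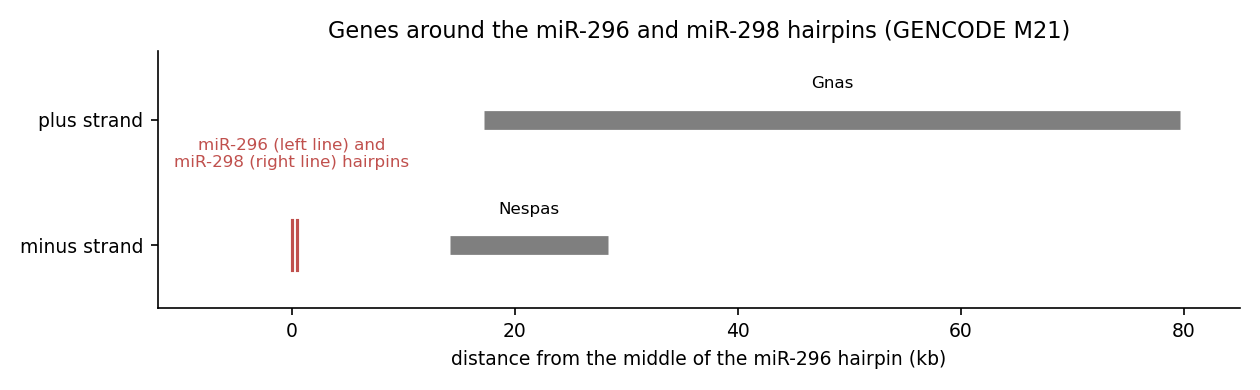
Map of the miR-296 and miR-298 hairpins (red lines, 378 nt apart) and the annotated Nespas and Gnas genes (grey bars) on the minus and plus strands, with the distance from the middle of the miR-296 hairpin in kb on the x axis. Nespas shares the strand of the hairpins and ends 13.7 kb from the miR-298 hairpin, with no gene annotated between 0 and that point on this map.

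Reads of miR-296-3p numbered 238, 230 and 182 in sham 47, 68 and 69, against 33, 26 and 18 in TAC 29, 78 and 81. On the scaled level these were 60.9, 116 and 71.3 CPM in sham and 20.0, 17.5 and 16.9 CPM in TAC. Every TAC heart was below every sham heart, and the lowest sham heart stood 3.05 times above the highest TAC heart. The mean went from 82.6 ± 29.0 CPM in sham to 18.1 ± 1.62 CPM in TAC (SD, n = 3 each), a log2 fold change of -2.17 ± 0.27 (SE from edgeR).

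miR-298-5p, the counted arm of the other hairpin, was read 147, 125 and 135 times in sham 47, 68 and 69, against 21, 16 and 11 in TAC 29, 78 and 81. Its level was 37.6, 62.8 and 52.9 CPM in sham and 12.7, 10.8 and 10.3 CPM in TAC. Again the groups did not overlap, with a gap of 2.96 times between the lowest sham heart and the highest TAC heart. The mean went from 51.1 ± 12.7 to 11.3 ± 1.26 CPM (SD, n = 3 each), a log2 fold change of -2.15 ± 0.25. Of the 354 rows that passed the low-count filter, these were the lowest and next lowest log2 fold changes.

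miR-296-5p, cut from the same precursor as miR-296-3p, was lower in TAC by less. It was read 250, 247 and 261 times in sham 47, 68 and 69, against 89, 111 and 92 in TAC 29, 78 and 81, or 63.9, 124 and 102 CPM in sham and 53.8, 74.6 and 86.5 CPM in TAC. The groups overlapped, because TAC 78 and TAC 81 were above sham 47. The mean was 96.8 ± 30.4 CPM in sham and 71.6 ± 16.5 CPM in TAC (SD, n = 3 each), and the log2 fold change of -0.43 ± 0.27 ranked 70 from the lowest of 354.

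miR-298-3p, the other arm of its hairpin, had 1 count in sham 69 and 0 in each other library, and it did not pass the filter. A count of 0 allows up to 0.855 to 2.45 CPM at these depths (library totals, counting error only), so a difference between the groups was not detectable.

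Thus 2 of the 4 members had groups that did not overlap with TAC lower, beside 22.0% of all 354 tested rows. Since the members were chosen from this contrast, nothing is read from that count. Less of a miRNA in each cell and fewer cells that make it cannot be told apart in heart tissue.

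**Figure D2:**
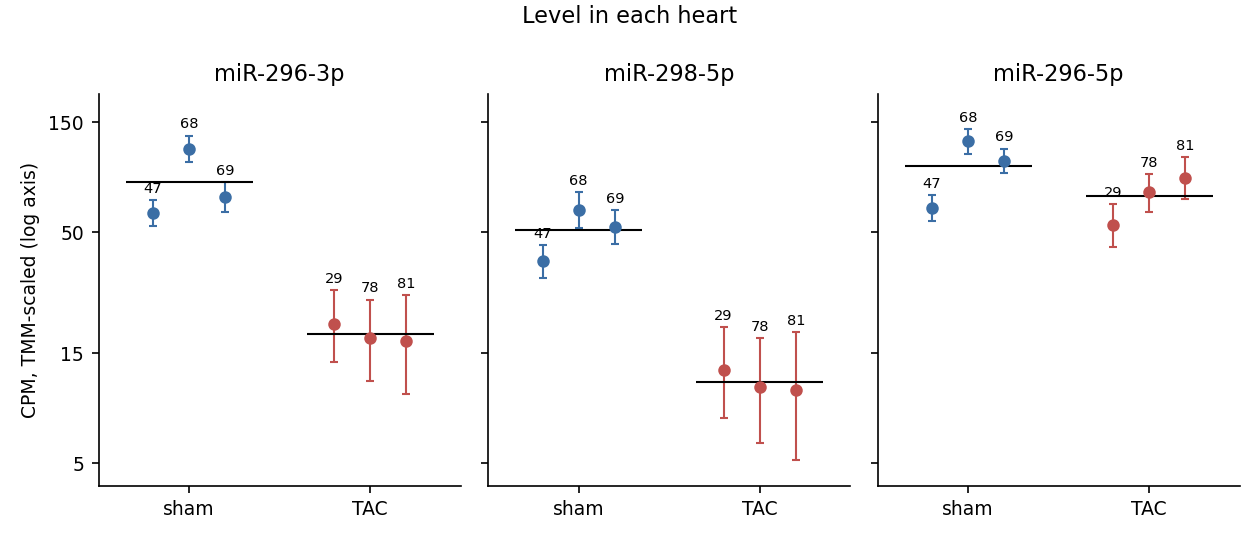
Level of miR-296-3p, miR-298-5p and miR-296-5p in each heart (TMM-scaled CPM, log axis), with 1 point per mouse labelled by animal number, exact 95% Poisson intervals as bars and the group mean as a black line. The TAC hearts lie between 16.9 and 20.0 CPM for miR-296-3p and between 10.3 and 12.7 CPM for miR-298-5p, below all sham hearts, while the groups overlap for miR-296-5p.

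**Figure D3:**
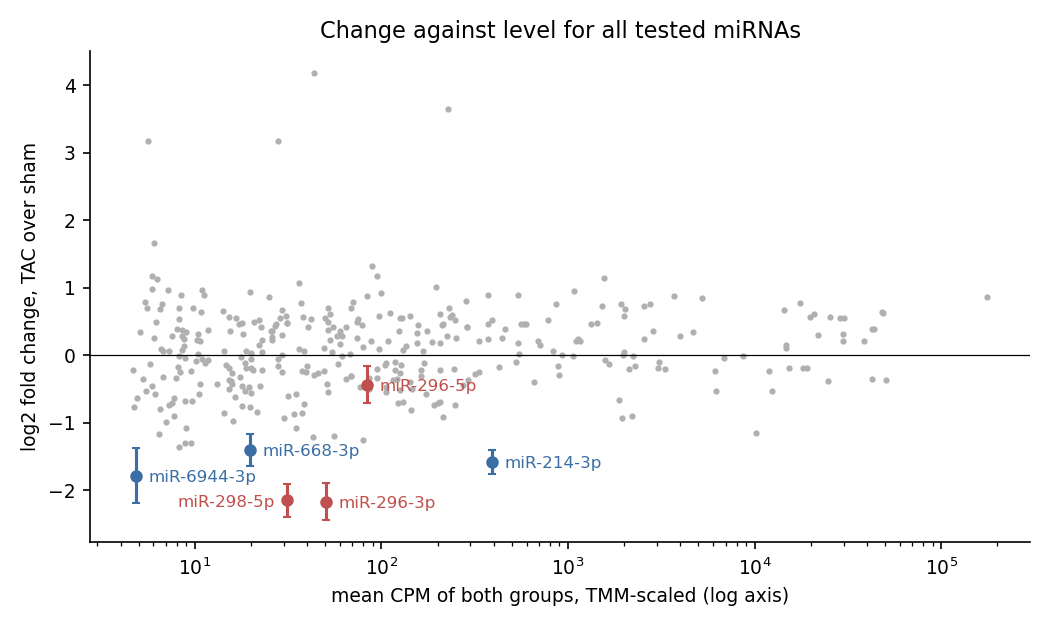
Log2 fold change of TAC over sham against the mean level of both groups (CPM, log axis) for the 354 tested miRNAs (grey), with the 3 tested members in red, the 3 next lowest miRNAs in blue and bars of 1 SE. miR-296-3p at -2.17 and miR-298-5p at -2.15 form the lower edge of the cloud, with miR-296-5p at -0.43 inside it.

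The 3 lowest log2 fold changes after them were those of miR-6944-3p (-1.78 ± 0.41), miR-214-3p (-1.58 ± 0.18) and miR-668-3p (-1.40 ± 0.24), all called lower by edgeR (adjusted p = 0.0125, 0.00090 and 0.00402). miR-214-3p is made from the mesenchymal Dnm3os transcript and miR-668-3p from the imprinted Dlk1-Dio3 region. miR-6944-3p was sparse, at 7.56 ± 0.66 CPM in sham and 2.13 ± 0.49 CPM in TAC (SD, n = 3 each).

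The members were miRNAs of middling abundance in sham. Ranked by CPM per nucleotide of row length, miR-296-5p was 148 from the top of the 354 tested rows, miR-296-3p 158 and miR-298-5p 194. In TAC miR-296-5p was at rank 169, miR-296-3p at 252 and miR-298-5p at 291. The level per nucleotide in sham was 4.61 CPM for miR-296-5p, 3.75 CPM for miR-296-3p and 2.22 CPM for miR-298-5p, and in TAC it was 3.41, 0.824 and 0.490 CPM. In sham the miR-296 arms lay within each other's spread between mice, and in TAC they did not.

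On the scaled level the 3 counted members had the same order across the sham hearts: sham 47 was the lowest and sham 68 the highest for each. The raw counts did not follow this order, at 250, 247 and 261 for miR-296-5p in sham 47, 68 and 69. All rows of a library share its scaling, so part of the common order can come from the scaling. The spread between sham mice, 35.1% of the mean for miR-296-3p, 31.4% for miR-296-5p and 24.8% for miR-298-5p (coefficient of variation), was wider than the 6.83%, 6.29% and 8.60% that counting error alone gives. In TAC the spread of miR-296-3p and miR-298-5p was 8.96% and 11.2%, below the counting error of 20.2% and 25.7% at so few reads, so no difference between the TAC hearts was detectable for them. For miR-296-5p it was 23.1% against a counting error of 10.2%.

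Ratios between members do not depend on how libraries are scaled. The count of miR-296-3p divided by that of miR-298-5p was 1.62, 1.84 and 1.35 in sham 47, 68 and 69, against 1.57, 1.63 and 1.64 in TAC 29, 78 and 81. The mean ratio of the sham hearts was 1.60 ± 0.25 and that of the TAC hearts 1.61 ± 0.03 (SD, n = 3 each). Both arms were chosen for their low level in TAC, so a similar ratio largely follows from the choice and was not tested. Counting error in TAC was 20.2% for miR-296-3p and 25.7% for miR-298-5p. The SD of 0.03 is smaller than such error allows for, so it does not measure how closely the ratio was kept. The count of miR-296-5p divided by that of miR-298-5p was 1.70, 1.98 and 1.93 in sham and 4.24, 6.94 and 8.36 in TAC, with no overlap, as miR-298-5p was lower in TAC by more than miR-296-5p.

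Within the miR-296 hairpin, the 3p arm held 48.8%, 48.2% and 41.1% of the counts of both arms in sham 47, 68 and 69. In TAC 29, 78 and 81 it held 27.0%, 19.0% and 16.4%. With the counts of a group pooled, the share was 46.2% in sham (exact Clopper-Pearson 95% interval 43.5 to 48.8%) and 20.9% in TAC (16.8 to 25.4%), intervals that cover counting error only. The mean share of the sham hearts was 46.0% ± 4.29 and that of the TAC hearts 20.8% ± 5.57 (SD, n = 3 each), a difference of -25.2 percentage points. Per nucleotide of arm length the shares were 44.9% ± 4.26 and 20.1% ± 5.43. The arms were thus near parity in sham hearts, while the 5p arm prevailed in TAC hearts.

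The same share was computed for the 86 hairpins with both arms tested and 1 place each. The change of the log2 ratio of 3p to 5p counts (0.5 added to each count) was -1.71 for miR-296, the largest in size of the 86, where the median size was 0.32. miR-21a followed at 1.60, its 3p arm going from 0.0514% ± 0.0346 of counts to 0.130% ± 0.0204 (SD, n = 3 each), and miR-708 came next at 1.29; these 2 were named after their values were seen. The groups did not overlap in 32.6% of the hairpins, and in 18.6% with the lower share in TAC. The 3p share was lower in TAC in 45 of 86. Since miR-296-3p was chosen for its difference, the place of miR-296 among these hairpins is a description and was not tested.

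**Figure D4:**
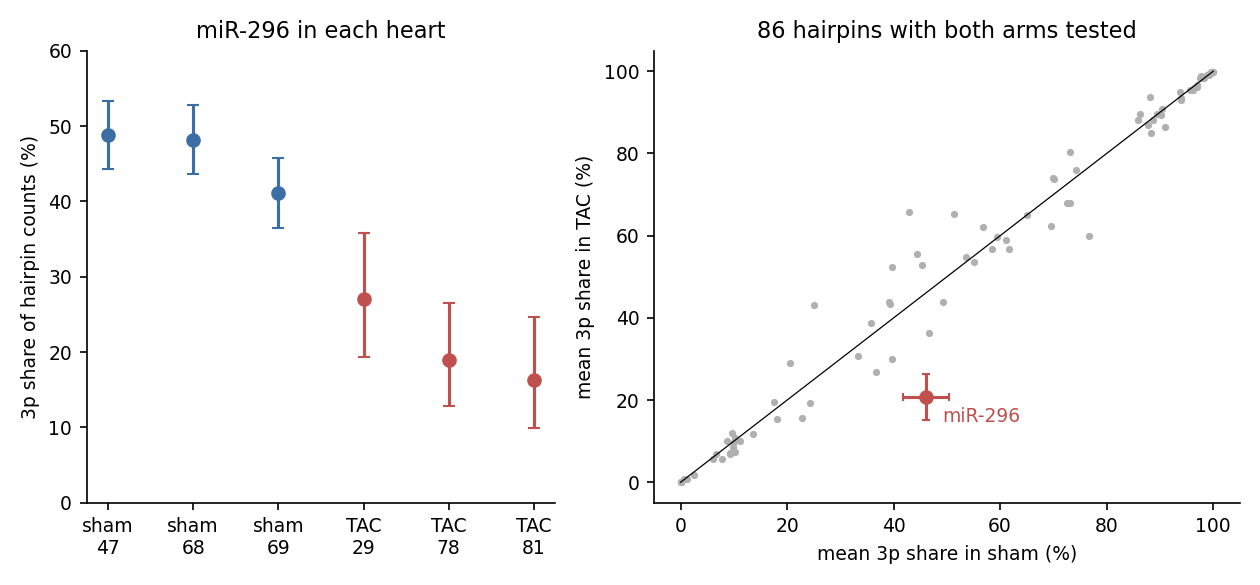
Left, share of the miR-296 hairpin's counts (%) held by its 3p arm in each heart, with exact 95% binomial intervals. Right, mean 3p share in TAC against sham (%) for 86 hairpins (grey, with the line of equal shares) and for miR-296 (red, bars of 1 SD), which lies at 46.0% in sham and 20.8% in TAC, below the line.

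For the miR-298 hairpin no such change could be measured, since the 3p arm had 1 of 408 counts in sham (0.245%, exact 95% interval 0.00621 to 1.36%) and 0 of 48 in TAC, which allows a share of up to 6.25%.

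Members of other hairpins with a similar course over the 6 hearts were ranked by the mean of 2 Pearson correlations of log2 CPM, with miR-296-3p and with miR-298-5p. The groups stand apart and all values come from the same libraries, so the correlations mostly reflect the group difference and carry no test. miR-296-3p and miR-298-5p had r = 0.99 with each other over 6 libraries. Of the 351 other tested rows, the 8 most alike were miR-21a-5p (mean r = 0.98), miR-99b-3p (0.96), miR-214-3p (0.96), miR-6944-3p (0.96), miR-667-3p (0.95), miR-541-5p (0.95), miR-324-3p (0.95) and miR-339-5p (0.95). miR-296-5p, at a mean r of 0.60, would be in place 99 of that order.

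miR-21a-5p, known from cardiac fibroblasts, was at 13147, 16464 and 12562 CPM in sham 47, 68 and 69 and 7598, 5470 and 5901 CPM in TAC 29, 78 and 81. Like the members, it was highest in sham 68, but its lowest sham heart was sham 69 and not sham 47. Its groups did not overlap. Its log2 fold change was -1.15 ± 0.15 (edgeR adjusted p = 0.00090). miR-99b-3p, from a cluster with let-7e and miR-125a, was at 255 ± 3.36 CPM in sham and 158 ± 10.4 CPM in TAC (SD, n = 3 each). With edgeR, its log2 fold change was -0.69 ± 0.12 (adjusted p = 0.00439). miR-667-3p and miR-541-5p, of the Dlk1-Dio3 region on chromosome 12, fell by 1.08 ± 0.33 and 0.50 ± 0.16 (edgeR adjusted p = 0.0396 and 0.0417). miR-339-5p fell by 0.52 ± 0.15 (edgeR adjusted p = 0.0319), and miR-324-3p was at -0.29 ± 0.14 and did not pass. The calls of miR-667-3p, miR-541-5p and miR-339-5p were each lost on leaving out sham 68, sham 69, TAC 78 or TAC 81, and the first 2 also without TAC 29 and miR-339-5p also without sham 47. That of miR-667-3p was also lost with DESeq2, with limma-voom and with the GC trend removed, and that of miR-339-5p with the GC trend removed.

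The surroundings on chromosome 2 held little else to compare. Within 5 Mb of the hairpins the only other row was miR-6340, with 0 counts in each sham library and 3, 1 and 1 in TAC 29, 78 and 81, too few to test. The nearest tested rows were miR-1a-3p, 6.12 Mb away on one side and also counted at another chromosome, and miR-3474, 15.6 Mb away on the other, at a log2 fold change of 0.35 ± 0.44. miR-1a-3p rose by 0.86 ± 0.14 in log2 units (edgeR adjusted p = 0.00316). Of the 20 other tested rows with a place on chromosome 2, 4 were higher and 2 lower, beside 19.2% higher and 11.3% lower among all tested rows. Their median log2 fold change was 0.06, against 0.07 over all rows. The lower ones were miR-129-5p and miR-199b-3p, named after their values were seen. The level of miR-199b-3p kept the same proportion to that of miR-199a-3p in every heart, at a log2 fold change of -0.53 each. It was 8960 beside 17923 CPM in sham 68 and 5083 beside 10169 CPM in TAC 81. The row of miR-199b-3p is therefore no separate measure of chromosome 2. Leaving out sham 47, TAC 78 or TAC 81 left 0 lower, leaving out sham 68 or TAC 29 left 1, and library totals made 6 lower. With the GC trend removed 2 were higher and 1 lower.

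Other imprinted miRNAs did not all share the low level in TAC. Over all 354 rows edgeR called 108, or 30.5%. In the Dlk1-Dio3 region, whose miRNAs are made from the maternal copy, 11 of 29 tested rows fell, 0 rose and 18 did not pass, with a median log2 fold change of -0.60, beside 11.3% lower among all rows. miR-668-3p, miR-431-3p, miR-127-3p and miR-433-3p had the smallest p, and miR-431-3p fell by 0.98 ± 0.22 (edgeR adjusted p = 0.0113). Without sham 68, sham 69, TAC 29, TAC 78 and TAC 81 in turn, 5, 4, 7, 6 and 2 rows were lower, while library totals made it 23, or 18 once the 5 most abundant miRNAs were left out of them. Of the 6 listed arms from Mest, Igf2 and H19, 3 were tested, none from H19, whose miR-675-3p had no read. miR-335-5p of Mest rose by 0.56 ± 0.18 (edgeR adjusted p = 0.0431), a call lost in 13 of 16 other settings and kept with the filter of 10 CPM, with limma-voom and without sham 68, and miR-335-3p and miR-483-3p were at 0.49 ± 0.22 and 0.54 ± 0.48. Of the 70 rows of the paternally expressed Sfmbt2 intron cluster, also on chromosome 2, 57 were at 0 in every library and 1 could be tested, miR-669c-5p, at -0.64 ± 0.53.

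miRNAs linked to the known roles of miR-296 were read from lists of the other members of those themes. Of 13 tested miRNAs of blood vessel growth, miR-378a-3p, let-7f-5p and miR-20a-5p rose, miR-210-3p fell and 9 did not pass, with a median log2 fold change of 0.01, beside 19.2% higher and 11.3% lower among all rows. miR-378a-3p rose by 0.55 ± 0.10 and miR-210-3p, induced by hypoxia, fell by 0.73 ± 0.17 (edgeR adjusted p = 0.00468 and 0.0133). The split of the list changed with the scaling, filter and tool: it was 1 higher and 3 lower with RLE, upper quartile factors or totals without the 5 most abundant, 0 and 5 with library totals, 1 and 4 unfiltered, 2 and 4 with DESeq2 and 1 and 2 divided by places. Without sham 47, sham 68, sham 69, TAC 29 or TAC 81, 1 was higher, and 3 were lower without TAC 29. The call of let-7f-5p was lost in 14 of 16 other settings and that of miR-20a-5p in 12, while miR-378a-3p lost it with library totals and miR-210-3p in none of the 16. Of the miRNAs that, like miR-296, target pluripotency factors, 2 of 5 could be tested: miR-134-5p, also of Dlk1-Dio3, fell by 0.60 ± 0.20 (edgeR adjusted p = 0.0466, lost with DESeq2, limma-voom or the GC trend removed and without sham 68, sham 69, TAC 78 or TAC 81), and miR-145a-5p was at 0.21 ± 0.10.

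Markers of several cell types also differed between the groups, and their part in the low level of miR-296-3p and miR-298-5p was not tested. Among all tested rows 11.3% were called lower and 19.2% higher. All 5 of 5 mesenchymal markers fell, with summed levels of 26130 to 38251 CPM in sham and 17056 to 19679 CPM in TAC. The sum was highest in sham 68, as for the members, but lowest of the sham hearts in sham 69, not in sham 47. miR-199a-5p and miR-214-5p were highest in sham 47. Of the mesenchymal markers, miR-214-3p and miR-21a-5p are given above, and miR-214-5p fell by 1.19 ± 0.19 (edgeR adjusted p = 0.00307). Both arms of the miR-214 hairpin are in the list, so its 5 rows are not 5 separate signs of a cell type. All 4 of 4 cardiac muscle markers rose (2 with library totals), and 3 of 4 smooth muscle markers rose (summed levels of 34646 to 43270 CPM in sham and 59555 to 62589 CPM in TAC). The call of miR-208a-3p was lost with library totals, with no filter and with the GC trend removed. That of miR-143-5p, a smooth muscle marker, was lost in 8 of 15 other settings. The 4 smooth muscle rows are both arms of miR-143 and both arms of miR-145a, so they are not 4 separate signs either. Of 4 tested leukocyte markers miR-150-5p rose, with summed levels of 213 to 230 CPM in sham and 335 to 352 CPM in TAC, and 2 rose without sham 47. miR-451a rose among 3 red blood cell markers, at summed levels of 1000 to 1165 CPM and 1642 to 3063 CPM.

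Of 8 neuronal and endocrine markers, a tissue class in which imprinted miRNAs are often high, 3 could be tested. miR-128-3p rose by 0.47 ± 0.08 and miR-129-5p fell by 0.72 ± 0.20 (edgeR adjusted p = 0.00406 and 0.0297), and miR-7a-5p was at 0.25 ± 0.18. The call of miR-129-5p was lost with the GC trend removed and without sham 47, sham 69, TAC 78 or TAC 81, that of miR-128-3p with library totals or no filter, and without sham 68, sham 69 or TAC 81 there were 2 higher. The summed level was 1552 to 1583 CPM in sham and 1922 to 2247 CPM in TAC. Of the 4 endothelial markers only miR-126b-3p could be tested, at 0.06 ± 0.33 and summed levels of 5.63 to 7.44 CPM in sham and 5.64 to 8.07 CPM in TAC. miR-126a-3p, miR-126a-5p, miR-126b-5p, miR-142a-3p, miR-9-5p and miR-9-3p had no read anywhere, but all 6 overlap another row antisense to them by 10 nt or more, so these zeros are no measure of those cells. miR-126b-3p lies antisense to miR-126a-5p, so its low level is in the same doubt.

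High GC content moved with lower levels in TAC to a small degree. Over the 315 tested rows with a RefSeq sequence, the Pearson r of GC content and log2 fold change was -0.11. Among 43 other tested miRNAs within 5 percentage points of the GC content of miR-296-3p, the median log2 fold change was -0.23. Around miR-298-5p the median was -0.18 over 51 miRNAs, and around miR-296-5p it was -0.20 over 48. These windows overlap. The median over all 354 tested rows was 0.07, but that set also holds rows without a sequence, which no window could include. With the trend on GC content removed library by library, a check chosen after seeing the data, miR-296-3p was at -1.95, miR-298-5p at -1.94 and miR-296-5p at -0.22.

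**Figure D5:**
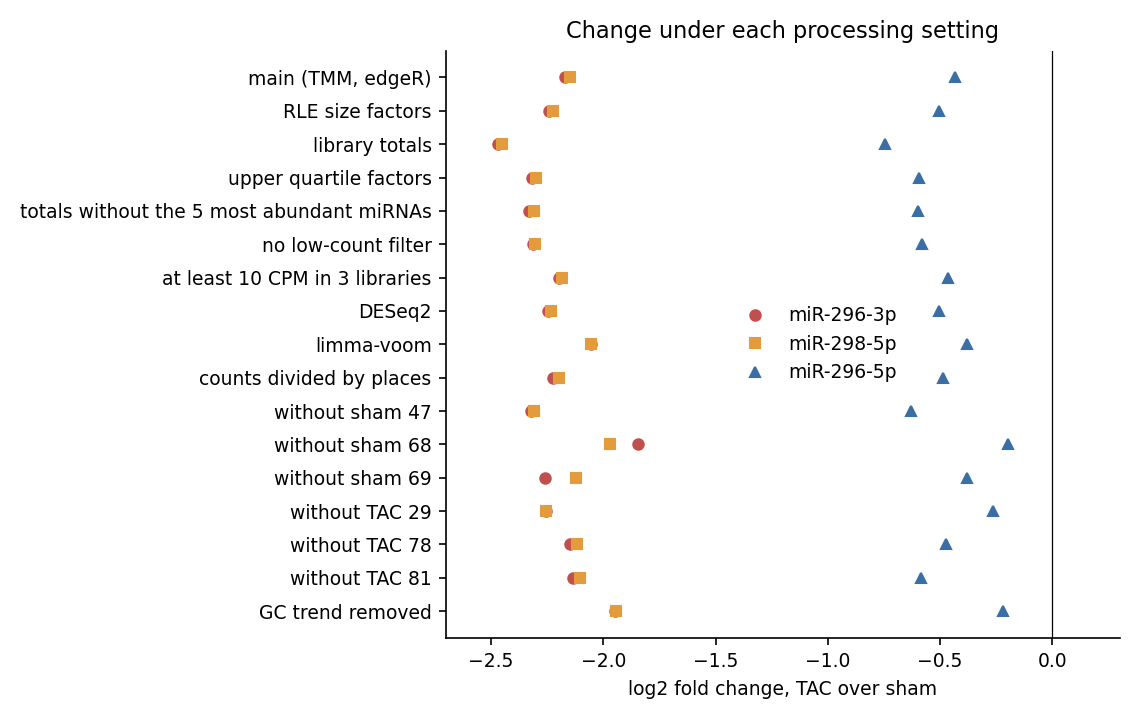
Log2 fold change of TAC over sham for miR-296-3p (circles), miR-298-5p (squares) and miR-296-5p (triangles) in the main fit and under 16 other settings, with 1 line per setting. miR-296-3p runs from -2.47 to -1.84 and miR-298-5p from -2.45 to -1.94, apart from miR-296-5p at -0.74 to -0.20 throughout.

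Across 16 other settings, the log2 fold change of miR-296-3p lay between -2.47 with library totals and -1.84 without sham 68, that of miR-298-5p between -2.45 and -1.94 in the settings of library totals and GC trend, and that of miR-296-5p between -0.74 with library totals and -0.20 without sham 68. Sham 68, the heart with the highest level of all 3, thus accounted for more of the size for the miR-296 arms than any other heart, and the value of miR-296-5p moved by more than 1.5 times without it, as it did with library totals, without TAC 29 (-0.26) and with the GC trend removed (-0.22).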

How the data were processed

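The deposited values are raw read counts of mature miRNAs, in a table that also lists genomic places. The submitters' processing notes list DESeq2, HISAT2, StringTie and mm10, without role or version; the sources used here do not name the counter, the trimming or the strand setting. All 6 value columns were matched to a mouse. The group of each mouse was taken from its sample title, so the direction of every change rests on those titles.

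TAC was compared with sham on all rows with edgeR 4.0.16 (R 4.3.3; quasi-likelihood F-test with filterByExpr and TMM, without covariates, Benjamini-Hochberg adjustment over 354 rows, called at an adjusted p under 0.05) and tested on simulated data. CPM and fold changes are TMM-scaled; SE is the log2 fold change over the square root of F. Intervals are exact Poisson or binomial (scipy 1.17.1). Members, lists and tests were chosen with earlier results of these data known. Named rows are the members, rows within 5 Mb, rows of equal seed, the 8 most alike, the 3 next lowest and up to 4 of smallest p per list. Other settings were other scalings, filters and tools (DESeq2 1.42.0, limma 3.58.1), counts divided by places and each mouse left out; the GC trend (local regression, span 0.75) was added later, on the 315 rows (89.0%) with a RefSeq sequence.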

Additional observations from a re-analysis of the deposited data

How the results depend on the processing

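The 3 tested members stayed below 0 under all 16 settings; miR-298-5p moved beyond the spread between mice with library totals (-2.45). The 3p share of miR-296 differed by -28.4 to -23.0 percentage points on leaving out 1 mouse and by -25.3 with pooled counts. Of 354 miRNAs 108 were called, 64 to 83 with 1 mouse left out (64 without TAC 81, 69 without TAC 78) and 65 with the GC trend, which tested 315; in the lists 32 were called, 18 to 26 with 1 mouse left out (18 without TAC 81, 21 without sham 69) and 17 with the GC trend. The split of 68 higher and 40 lower was 50 and 56 with RLE, 25 and 102 with library totals, 41 and 63 with upper quartile factors, 43 and 72 without the 5 most abundant, 42 and 65 unfiltered, 51 and 52 divided by places and 59 and 50 by DESeq2. Library totals moved the median of all rows from 0.07 to -0.23, left 2 cardiac muscle markers higher and made 23 Dlk1-Dio3 rows lower. With 11 to 33 counts per TAC library, depth limits miR-296-3p and miR-298-5p. No paired analysis was possible because the groups share no animal number.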
